A study of Mus musculus with 2 samples.

Results

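The cells described here are macrophages of Hepa1-6 tumours that carried messenger RNA of Gpnmb, Trem2 or Ctsk, genes that mark lipid-associated macrophages. Hepa1-6 is a mouse hepatoma line. Tumours of mice given CD147-LYTACs were profiled beside tumours of control mice by droplet single-cell RNA sequencing, with 1 library per group and no replicate, so no test between groups was possible. CD147-LYTACs are lysosome-targeting chimaeras directed at CD147, the Bsg product; the labels give 40 mg/kg every 3 days for 4 doses, leave the route open between intraperitoneal and intravenous, and place the harvest on day 12. The labels do not say what the control mice received or how many tumours went into a library. In both groups sorted CD45- and CD45+ cells were recombined 1:3 before loading, so shares of all barcodes are set in part by that step.

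A cell barcode was a member if it passed a depth filter (at least 500 UMIs, 300 genes and at most 15% mitochondrial UMIs), lay in a macrophage gate, and held at least 2 UMIs of Gpnmb, Trem2 and Ctsk together. The members were thus chosen by measured UMI counts of those genes, which are described below without any test. UMIs are unique molecular identifiers, each counted as 1 captured transcript. The gate asked for at least 2 UMIs of Lyz2, Csf1r and Cd68 together, none of Cd3e, Cd3d, Cd3g or Csf3r, and at most 2 of Krt8 and Krt18. Of 17369 barcodes, 15267 passed the depth filter, 832 lay in the gate and 211 were members. The CD147-LYTACs library held 187 members and the control library 24. The members summed to 1256606 UMIs in the CD147-LYTACs library and 244947 UMIs in the control library, with medians of 5714 and 7092.5 UMIs per cell. Levels below are CPM, the UMIs of a gene scaled to a common total of these sums, so that 1 UMI was worth 0.796 CPM in the CD147-LYTACs members and 4.08 CPM in the control members. Intervals are 95% intervals for counting error only, and say nothing of the spread between cells or between tumours. A sum held mostly by 1 cell can thus have a narrow interval.

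Lipid-associated macrophages take up lipid and cell debris, hold it in droplets and lysosomes, and pass cholesterol on. TREM2 is a surface receptor for lipids and apolipoproteins that signals through the adaptor TYROBP, GPNMB is a lysosome-linked membrane glycoprotein of phagocytes, and cathepsin K is a lysosomal protease best known from osteoclasts. Such cells are found in obese fat, fatty liver, atherosclerotic plaque and tumours. In tumours, macrophages of this kind commonly also carry osteopontin (Spp1), arginase 1 (Arg1) and fatty acid-binding proteins.

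Promoters are shown for 3 of the genes that the results turn on: Spp1, which had the widest difference between libraries among the genes plotted for level, Pf4, and Gpnmb, the gene found in most members. The windows are from RefSeq on GRCm38.p6, run from 250 bases before to 50 bases after the RefSeq gene start, and are printed in lower case. Capitals mark a match to GAGGAAGT, a letter string bound by PU.1, the lineage factor of macrophages, or to TGACTCA, the AP-1 string, on either strand. Of the Spp1 windows in the table, the one nearest to the annotated gene start is shown. No match to TCATGTG, a string bound by MITF and its relatives, was present in the windows of these genes, and the windows of Trem2 and Ctsk held none of the 3 strings.
Spp1, chr5:104434861-104435160, plus strand: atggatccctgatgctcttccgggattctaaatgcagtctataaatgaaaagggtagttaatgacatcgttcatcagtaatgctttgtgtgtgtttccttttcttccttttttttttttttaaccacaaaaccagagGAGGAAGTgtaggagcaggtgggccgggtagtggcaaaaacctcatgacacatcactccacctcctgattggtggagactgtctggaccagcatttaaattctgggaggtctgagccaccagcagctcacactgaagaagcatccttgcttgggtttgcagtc
Pf4, chr5:90772185-90772484, plus strand: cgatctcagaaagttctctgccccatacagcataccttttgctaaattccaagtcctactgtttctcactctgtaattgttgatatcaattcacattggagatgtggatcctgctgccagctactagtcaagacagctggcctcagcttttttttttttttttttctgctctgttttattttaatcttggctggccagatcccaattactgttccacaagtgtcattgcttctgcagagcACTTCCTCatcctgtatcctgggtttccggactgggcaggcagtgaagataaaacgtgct
Gpnmb, chr6:49036268-49036567, plus strand: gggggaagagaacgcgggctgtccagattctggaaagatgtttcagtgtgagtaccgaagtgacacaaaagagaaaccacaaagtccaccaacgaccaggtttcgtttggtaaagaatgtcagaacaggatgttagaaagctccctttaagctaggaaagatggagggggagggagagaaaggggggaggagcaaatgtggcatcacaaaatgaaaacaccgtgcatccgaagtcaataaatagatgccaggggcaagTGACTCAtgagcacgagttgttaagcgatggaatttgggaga
Of 32851 promoter windows of the same length, 3.20% held GAGGAAGT, 5.20% TGACTCA and 3.77% TCATGTG, each counted on both strands. A match describes the letters and is not evidence of binding.

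Members made up 30.4% of gate barcodes in the CD147-LYTACs library (187 of 615, Clopper-Pearson interval 26.8% to 34.2%) and 11.1% in the control library (24 of 217, interval 7.22% to 16.0%). The intervals do not overlap, and the ratio of the shares was 2.75. Of the barcodes with Ptprc, the CD45 gene, members were 2.68% in the CD147-LYTACs library and 0.401% in the control library, a ratio of 6.69. Of all barcodes that passed the depth filter they were 2.29% in the CD147-LYTACs library and 0.338% in the control library, a ratio of 6.76. The gate itself was larger in the CD147-LYTACs library, with 615 barcodes against 217. Gate barcodes that held at least 2 UMIs of C1qa, C1qb and C1qc but at most 1 of the 3 membership genes, called C1q-positive barcodes here, went the other way as a share of the gate, at 13.8% in the CD147-LYTACs library and 25.3% in the control library. As a share of all passing barcodes these were 1.04% in the CD147-LYTACs library and 0.776% in the control library. Since the membership genes chose the cells, these shares are a description.

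**Figure D1:**
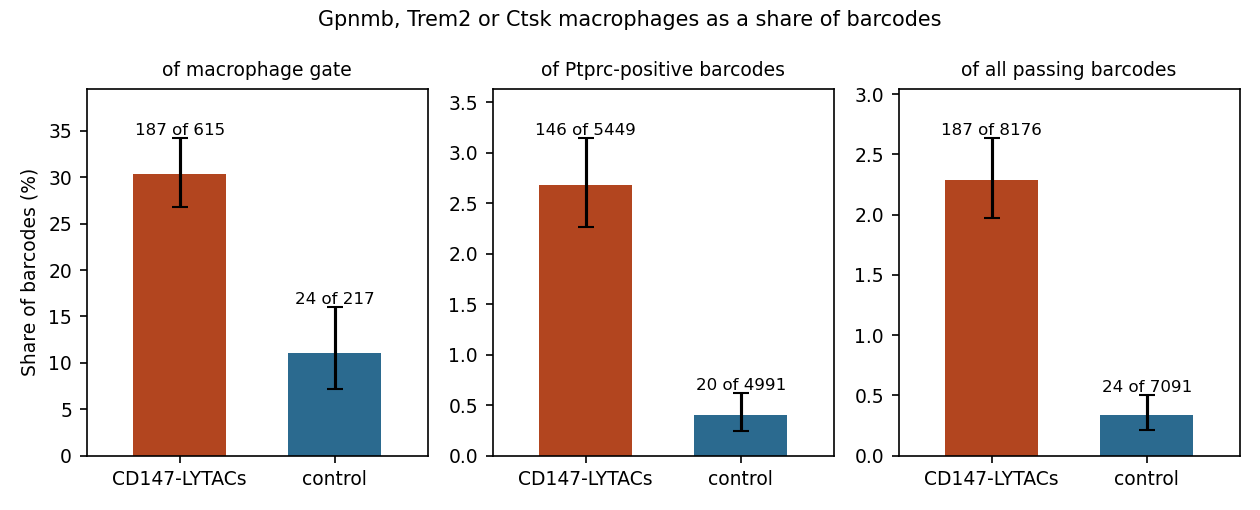
Members as a percentage of gate barcodes, of Ptprc-positive barcodes and of all passing barcodes in the CD147-LYTACs and control libraries (bars, 1 library each; whiskers, 95% Clopper-Pearson intervals; numbers, members over barcodes). Each pair of intervals is separate, and the gate shares are 30.4% and 11.1%.

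The membership genes were not carried evenly. Gpnmb was found in 174 of the 187 CD147-LYTACs members and 23 of the 24 control members. Trem2 was found in 65.8% of CD147-LYTACs members and 37.5% of control members. Ctsk was found in 34.2% of CD147-LYTACs members and 20.8% of control members. All 3 genes occurred together in 50 CD147-LYTACs members and 2 control members, while Gpnmb alone made 53 members of the CD147-LYTACs library and 12 of the control library. Control membership thus rested on fewer genes per cell. The summed membership genes had a median of 7 UMIs (range 2 to 141) in CD147-LYTACs members and 6 (range 2 to 41) in control members. At the limit of the rule, 29 CD147-LYTACs members (15.5%) and 10 control members (41.7%) had exactly 2 UMIs, and just outside it 55 gate barcodes of the CD147-LYTACs library and 10 of the control library had 1. In the CD147-LYTACs library, cells at 2 UMIs had 1487 CPM of Pf4 and 2336 CPM of Spp1, against 515 and 1268 CPM in the barcodes at 1 UMI.

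The levels of the membership genes are given as a description. Gpnmb stood at 1409 CPM in CD147-LYTACs members and 817 CPM in control members, a log2 ratio of 0.79. Trem2 stood at 302 CPM in CD147-LYTACs members and 53.1 CPM in control members. Ctsk stood at 233 CPM in CD147-LYTACs members and 24.5 CPM in control members, where it rested on 6 UMIs, and at 272.5 CPM in the fibroblast barcodes of the CD147-LYTACs library. The other label markers played no part in the rule. Pf4, the CXCL4 chemokine of platelets and some tissue macrophages, stood at 2075 CPM in CD147-LYTACs members and 310.3 CPM in control members, a log2 ratio of 2.74 (interval 2.41 to 3.09). Pf4 was found in 121 of 187 CD147-LYTACs members and in 6 of 24 control members, with 55.3% of its control UMIs in 1 cell. Arg1, which turns arginine into ornithine and urea, stood at 1434 CPM in CD147-LYTACs members and 351 CPM in control members, a log2 ratio of 2.03 (1.72 to 2.36). Arg1 was found in 113 CD147-LYTACs members and 9 control members. The 5 label markers were thus all present in both libraries, in a minority of control members for 4 of them.

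These differences were also seen in the C1q-positive barcodes, which held at most 1 UMI of the membership genes. Pf4 stood at 955 CPM in C1q-positive barcodes of the CD147-LYTACs library and 120 CPM in those of the control library. Arg1 stood at 625 CPM in C1q-positive barcodes of the CD147-LYTACs library and 114 CPM in those of the control library. Whether the library difference was wider in members than in these cells was not tested.

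Spp1, the secreted phosphoprotein osteopontin, stood at 2652 CPM in CD147-LYTACs members and 147 CPM in control members, a log2 ratio of 4.17 (3.70 to 4.69). It was found in 132 CD147-LYTACs members and 10 control members, and the log2 ratio lay between 2.77 and 4.56 over all alternatives run. In C1q-positive barcodes Spp1 stood at 316.5 CPM for the CD147-LYTACs library and 114 CPM for the control library. With every cell thinned to 2000 UMIs, which left out 12 CD147-LYTACs members and 1 control member, Spp1 was detected in 62.9% of CD147-LYTACs members (110 of 175) and 17.4% of control members (4 of 23). The share in thinned T cells, a background level, was 2.33% in the CD147-LYTACs library and 1.38% in the control library. Unthinned, Spp1 was detected in 70.6% of CD147-LYTACs members and 41.7% of control members. Thinned detection of Trem2, again as a description, was 41.7% of CD147-LYTACs members and 8.70% of control members, and 0 of 2016 and 0 of 2901 T cells.

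Among the 4266 genes measured in members (mean of the libraries at least 20 CPM and at least 50 UMIs in all), 18.9% were at least 1.5-fold higher and 13.9% at least 1.5-fold lower in the CD147-LYTACs library, and the median log2 ratio was 0.07. Scaled by the median of gene ratios, the counts were 677 higher and 696 lower, against 807 and 591. A gene found in 1 library alone reaches 50 UMIs at a lower CPM in CD147-LYTACs members than in control members. The filter is thus uneven between the 2 directions. At a mean of at least 100 CPM, 12.6% of 1828 genes were higher and 17% lower. With 24 control cells, such calls hold much counting noise, and counts for gene groups are read against the shares of 18.9% and 13.9%. Of 17 measured genes of the TREM2 signalling and lipid-associated programme list, 7 were higher and 4 lower, with a median log2 ratio of 0.21. Lgals3, the sugar-binding protein galectin 3, stood at 5801 CPM in CD147-LYTACs members and 3270.1 CPM in control members, a log2 ratio of 0.83 (0.72 to 0.93). The tetraspanin gene Cd9 stood at 560.2 CPM in CD147-LYTACs members and 343 CPM in control members, a log2 ratio of 0.71. It was 0.19 in redrawn members, chosen by the rule after cells were thinned to 2000 UMIs (137 CD147-LYTACs members and 11 control members). Ratios in redrawn members, here and below, still sum all UMIs of those cells, so the set of cells changed and the counts did not. Tyrobp, the TREM2 adaptor, differed little, at 1222 CPM in CD147-LYTACs members and 1057 CPM in control members. The metalloelastase gene Mmp12 went the other way, at 1698 CPM in CD147-LYTACs members and 2711 CPM in control members, a log2 ratio of -0.67 that came to -0.23 as a mean over cells.

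Of 20 measured genes of lipid uptake, storage and efflux, 3 were higher and 4 lower in CD147-LYTACs members, with a median log2 ratio of 0.06. The higher genes were Fabp5, Plin2 and Apoc2. Fabp5, an intracellular carrier of fatty acids, stood at 2866 CPM in CD147-LYTACs members and 1649 CPM in control members. Its log2 ratio was 0.80 (0.65 to 0.95), and 0.50 in redrawn members. Plin2, the coat protein of lipid droplets, stood at 1220.0 CPM in CD147-LYTACs members and 612 CPM in control members, a log2 ratio of 0.99 (0.75 to 1.25). The lower genes were the scavenger receptor gene Msr1, the cholesterol exporter gene Abca1, the liver X receptor gene Nr1h3 and Apoe. Abca1 stood at 614 CPM in CD147-LYTACs members and 1033 CPM in control members, a log2 ratio of -0.75. Apoe, the apolipoprotein that carries exported cholesterol, stood at 2126 CPM in CD147-LYTACs members and 4213 CPM in control members, a log2 ratio of -0.99 (-1.09 to -0.88). The Apoe sum of control members rested on few cells, with 46.4% of its UMIs in 1 of them. Its per-cell median was 8.10 per 10000 UMIs in CD147-LYTACs members and 3.76 in control members, the opposite order. The log2 ratio was -0.52 as a mean over cells. The scavenger receptor gene Cd36 and the lipase gene Lpl stayed under 1.5-fold, with log2 ratios of 0.56 and 0.12.

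Lysosomal genes had a median log2 ratio of 0.16. Of 28 measured, 5 were higher in CD147-LYTACs members (Ctsd, Ctsl, Cd63, Gusb and Tfe3) and 1 was lower (Atp6v0d2, a proton pump subunit). The protease gene Ctsl stood at 1793 CPM in CD147-LYTACs members and 710.4 CPM in control members, a log2 ratio of 1.34 (1.11 to 1.57). Ctsd, the aspartic protease cathepsin D, stood at 2714 CPM in CD147-LYTACs members and 1208 CPM in control members, a log2 ratio of 1.17 (1.00 to 1.34). Ctsb stood at 4490 CPM in CD147-LYTACs members and 3054 CPM in control members, a log2 ratio of 0.56, and Mitf at 164 and 159 CPM. Of 13 measured iron and antioxidant genes, 4 were higher and 1 lower. Ftl1, the ferritin light chain, stood at 10727 CPM in CD147-LYTACs members and 4687 CPM in control members, a log2 ratio of 1.19 (1.11 to 1.28), and the ferritin heavy chain gene Fth1 had a log2 ratio of 0.69. Hmox1, the haem oxygenase gene, had 617 CPM in CD147-LYTACs members and 731 CPM in control members.

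**Figure D2:**
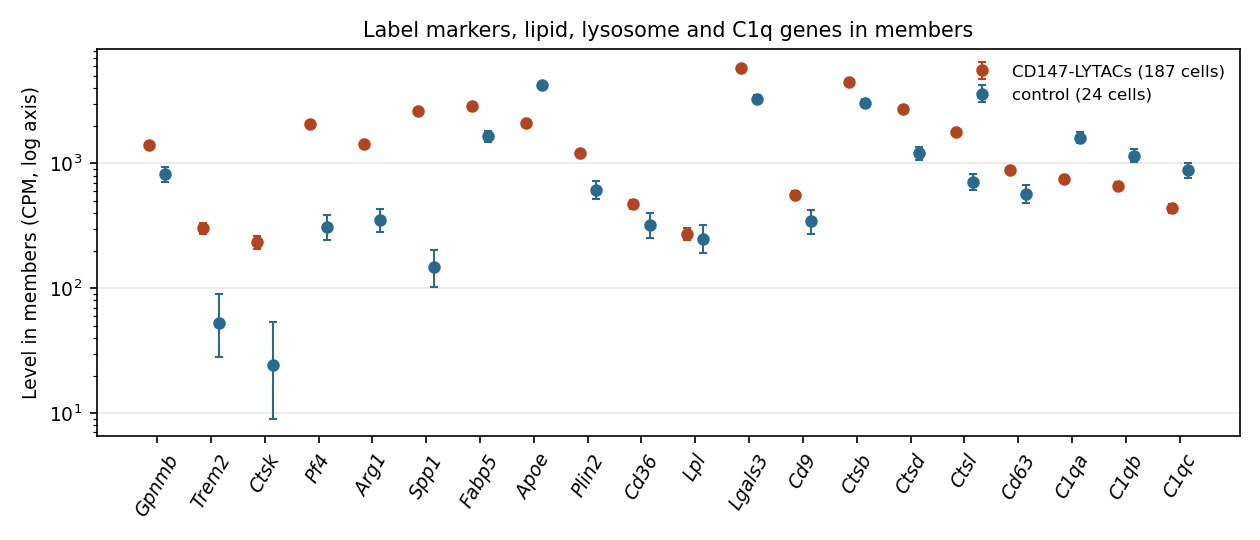
Levels of label markers, lipid, lysosome and C1q genes in CD147-LYTACs members (left point of each pair, 187 cells) and control members (right point, 24 cells), in CPM on a log axis with 95% Poisson intervals, 1 library each. Spp1, Ctsk, Pf4, Trem2 and Arg1 are farthest apart, and Apoe and the C1q genes lie lower in CD147-LYTACs members.

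Chemokine genes were mostly higher. Of 17 measured, 13 were higher in CD147-LYTACs members and 2 lower, with a median log2 ratio of 1.43. That median was 0.75 in redrawn members, of which 11 were of the control library. Ccl2, which attracts monocytes through CCR2, stood at 1014 CPM in CD147-LYTACs members and 175.5 CPM in control members, a log2 ratio of 2.53 (2.09 to 3.00). Cxcl2, a neutrophil attractant that acts through CXCR2, stood at 16943 CPM in CD147-LYTACs members and 5662 CPM in control members, a log2 ratio of 1.58. It was detected in 180 of 187 CD147-LYTACs members and 20 of 24 control members. Cxcl1, of the same receptor, stood at 1333 CPM in CD147-LYTACs members and 269 CPM in control members, a log2 ratio of 2.31. Ccl9 had a log2 ratio of 2.14 and Ccl3 one of 1.55, while the T cell attractants Ccl5 and Cxcl9 were lower, with log2 ratios of -0.83 and -2.52. Cxcl9 was held by 5 control members, with 62.9% of its control UMIs in 1 cell. Cxcl2 was higher in C1q-positive barcodes of the CD147-LYTACs library too, at 7984 CPM against 3152 CPM in the control library. In T cells thinned to 2000 UMIs it was detected in 11.5% of the CD147-LYTACs library and 2.24% of the control library, and the part of such background in the members' difference was not tested.

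Of 13 measured genes of inflammatory cytokines and their feedback, 7 were higher and 1 lower in CD147-LYTACs members. The median log2 ratio was 0.59, and 0.40 in redrawn members. Il1b, the precursor of interleukin 1 beta, stood at 1928 CPM in CD147-LYTACs members and 910.4 CPM in control members, a log2 ratio of 1.08, with 51.6% of the control UMIs in 1 cell. The Il1b ratio came to 0.32 in redrawn members. Ptgs2, the inducible cyclooxygenase, had a log2 ratio of 0.71. Il6 was the lower gene, at 31.0 CPM in CD147-LYTACs members and 184 CPM in control members, where 6 cells held it. Its log2 ratio of -2.57 came to -0.01 in redrawn members.

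MHC class II genes, which present peptides to CD4 T cells, were lower in CD147-LYTACs members. Of 7 measured genes 6 were lower and none higher, with a median log2 ratio of -1.58, and between -1.87 and -1.43 over all alternatives run. Cd74, the invariant chain, stood at 2819 CPM in CD147-LYTACs members and 8765 CPM in control members, a log2 ratio of -1.64 (-1.71 to -1.56). The class II chains H2-Aa, H2-Ab1 and H2-Eb1 had log2 ratios of -1.58, -1.61 and -1.73. The per-cell median of Cd74 was 1.05 per 10000 UMIs in CD147-LYTACs members and 37.0 in control members. After thinning, H2-Ab1 was detected in 29.1% of CD147-LYTACs members and 69.6% of control members, beside 3.67% of T cells in the CD147-LYTACs library and 2.93% in the control library. In C1q-positive barcodes H2-Ab1 stood at 2850.35 CPM for the CD147-LYTACs library against 4463 CPM for control, and the log2 ratio was -0.65. Of 10 measured MHC class I genes, 1 was lower and none higher, with a median log2 ratio of -0.34.

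Of 15 measured genes of the interferon-gamma response, 10 were lower and none higher in CD147-LYTACs members. The median log2 ratio was -1.16, which was -0.57 in redrawn members and -0.70 without barcodes that held S100a8 or S100a9. Irf8, a transcription factor of monocytes and dendritic cells, stood at 183 CPM in CD147-LYTACs members and 514 CPM in control members, a log2 ratio of -1.49 (-1.81 to -1.17). The guanylate-binding protein gene Gbp4 stood at 46.2 CPM in CD147-LYTACs members and 184 CPM in control members, a log2 ratio of -1.99. Irf1, an interferon-induced transcription factor, stayed under 1.5-fold, with a log2 ratio of -0.12. Of 16 measured type I interferon genes, 1 was higher and 4 lower, with a median of -0.14 that came to 0.74 in redrawn members. Ccr7, the one dendritic cell marker that passed the level filter, was higher in CD147-LYTACs members, at 87.5 CPM against 12.2 CPM in control members (log2 ratio 2.84, interval 1.25 to 5.14). The 10 dendritic cell markers together summed to 134 CPM in CD147-LYTACs members and 282 CPM in control members. All 21 Siglech UMIs of the control members (85.7 CPM), a plasmacytoid dendritic cell marker, came from 1 cell. Leaving out the barcodes with at least 2 UMIs of Flt3, Siglech, Ccr9, Xcr1 and Zbtb46 kept 182 CD147-LYTACs members and 22 control members, and Cd74 stayed within -1.87 to -1.47 over all alternatives run.

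The arginine and nitric oxide genes split. Arg2, the mitochondrial arginase, stood at 212 CPM in CD147-LYTACs members and 106 CPM in control members, a log2 ratio of 1.00. Nos2, the inducible nitric oxide synthase that uses the same substrate as the arginases, stood at 154 CPM in CD147-LYTACs members and 1233 CPM in control members, a log2 ratio of -3.00 (-3.27 to -2.74). It was held by 33 of 187 CD147-LYTACs members and 11 of 24 control members, with 40.4% of the control UMIs in 1 cell. Slc7a2, an arginine importer, was lower too, with a log2 ratio of -0.69.

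**Figure D3:**
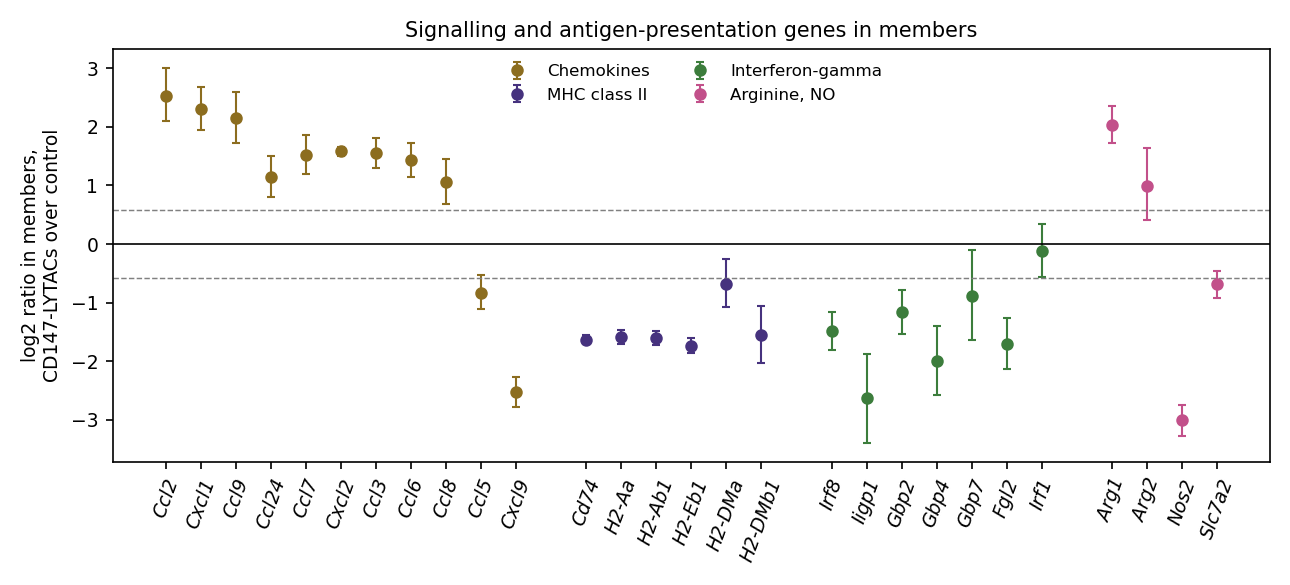
Log2 ratios of CD147-LYTACs over control members for chemokine, MHC class II, interferon-gamma and arginine or nitric oxide genes (points; whiskers, 95% intervals for counting error; dashed lines, 1.5-fold). Chemokines apart from Ccl5 and Cxcl9 lie above 0, class II and most interferon-gamma genes below it, and Arg1 and Nos2 on opposite sides.

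Bsg, which encodes CD147, the target of the LYTACs, stood at 206 CPM in CD147-LYTACs members and 192 CPM in control members, and the interval of their log2 ratio, 0.10, ran between -0.35 and 0.58. The protein, on which these chimaeras act, was not measured. The lactate exporter gene Slc16a3, whose product needs CD147 at the membrane, stood at 143 CPM in CD147-LYTACs members and 102 CPM in control members (log2 ratio 0.49, interval -0.12 to 1.15). Ldha, which makes lactate, had a log2 ratio of 0.04. Of 14 measured glycolysis genes, 1 was higher and 3 lower, with Hk2 (hexokinase 2) at 284 CPM in CD147-LYTACs members and 612 CPM in control members. Of 13 measured hypoxia genes, 2 were higher and 4 lower, with a median log2 ratio of -0.24. Hilpda, which blocks the breakdown of droplet lipid, was among the higher ones, at 760.0 CPM in CD147-LYTACs members and 404 CPM in control members. The ligand gene Cd274 (PD-L1) differed little, at 801 CPM in CD147-LYTACs members and 927 CPM in control members.

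The classical complement genes were lower in the sums. C1qa stood at 748 CPM in CD147-LYTACs members and 1609 CPM in control members, a log2 ratio of -1.10, and C1qb and C1qc had log2 ratios of -0.81 and -1.01. Averaging over cells in place of summing UMIs brought these to -0.44, -0.18 and -0.34. The share of members with C1q transcripts was close, at 42.2% of CD147-LYTACs members (79 of 187) and 45.8% of control members (11 of 24) with at least 2 UMIs. Of the 20 listed genes of C1q and resident macrophages, 15 were measured, 2 were higher (Stab1 and Pf4) and 5 lower. Kupffer cell markers summed to 27.9 CPM in CD147-LYTACs members and 106 CPM in control members. Clec4f was at 0 in both, which allows up to 2.39 CPM in CD147-LYTACs members and 12.2 CPM in control members, and all 25 control UMIs of Marco came from 1 cell.

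By a rule of size and counting interval, the genes with the firmest higher level in CD147-LYTACs members, apart from genes of the rule and those that differed the same way in hepatoma and T cells, were Fn1, Npy, Pmp22, Mmp8, Ppbp, Ccl2, Mrpl20, Clmp, Flrt3, Uck2, Maml3 and S100a6. Fn1, the matrix protein fibronectin, stood at 327 CPM in CD147-LYTACs members and 12.2 CPM in control members, a log2 ratio of 4.74 (3.18 to 7.02). Fn1 was found in 71 CD147-LYTACs members and 2 control members, and its log2 ratio was 1.32 in redrawn members. Npy, a neuropeptide precursor, stood at 137 CPM in 46 CD147-LYTACs members and at 0 of 244947 UMIs in control members, which makes it at least 3.48 higher on the log2 scale. In C1q-positive barcodes Npy had 1.95 CPM in the CD147-LYTACs library and 0 UMIs in the control library. Mmp8, a collagenase, stood at 220.4 CPM in CD147-LYTACs members and 16.3 CPM in control members, a log2 ratio of 3.75 (2.38 to 5.64). S100a6, a calcium-binding protein, was broadly expressed, at 1386 CPM in CD147-LYTACs members and 437 CPM in control members. Of these 12 genes, 2 had no control UMI, and 6 had at least 40% of their control UMIs in 1 cell.

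By the same rule of size and counting interval, the genes with the firmest lower level were Cadm1, Prkca, Nos2, Ksr2, Gdap2, Cxcl9, Rnd3, Il6, Phlpp1, Iigp1, Rasa3 and Dnmt3a. Of these 12, 8 had at least 40% of their control UMIs in 1 cell. Cadm1, a cell adhesion molecule, stood at 31.0 CPM in CD147-LYTACs members and 376 CPM in control members, a log2 ratio of -3.60 (-4.18 to -3.04), and was held by 6 control members. Phlpp1, a phosphatase of AKT, stood at 258 CPM in CD147-LYTACs members and 1143 CPM in control members, where 17 cells held it. Its log2 ratio of -2.15 came to -1.38 without the deepest member of each library. Prkca came to -0.54 in redrawn members, in place of -3.36, and so was no longer past 1.5-fold. Without the deepest members Ksr2 came to -1.67 in place of -3.24, Cxcl9 to -1.56 in place of -2.52 and Dnmt3a to -1.40 in place of -2.16.

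Monocyte genes were mixed among members. Of 9 measured, 4 were higher (Vcan, Chil3, Fn1 and S100a4) and 2 lower (Ly6c2 and Plac8). Both lower genes turned direction in redrawn members, at 1.80 for Ly6c2 and 2.82 for Plac8, against -0.74 and -1.42. Chil3, a chitinase-like protein, stood at 267 CPM in CD147-LYTACs members and 12.2 CPM in control members, a log2 ratio of 4.45 (2.89 to 6.73). Ccr2, the monocyte receptor for CCL2, was at 13.5 CPM in CD147-LYTACs members and 20.4 CPM in control members. Itgam, the CD11b integrin, stood at 325 CPM in CD147-LYTACs members and 98.0 CPM in control members, a log2 ratio of 1.73.

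Markers of other cell types were looked for in the members. Of 15 listed neutrophil markers, 6 were measured and all 6 were higher in CD147-LYTACs members, with summed levels of 1492 CPM in CD147-LYTACs members and 486 CPM in control members. Of the 14 neutrophil markers in the files, 2 were at 0 in CD147-LYTACs members and 5 in control members. The CD147-LYTACs library also held more neutrophil barcodes, 323 against 43 in the control library. The part of neutrophil RNA in the differences between libraries was not tested. S100a8 stood at 248 CPM in CD147-LYTACs members and 53.1 CPM in control members. At least 2 UMIs of S100a8 or S100a9 were held by 31 of 187 CD147-LYTACs members and 3 of 24 control members. Without those barcodes the share of members in the gate was 36.9% in the CD147-LYTACs library and 10.4% in the control library. Apoe had a log2 ratio of -0.16 without them, against -0.99 with them. The step left out 3 control members, and a large part of the control Apoe UMIs lay in 1 cell, as given above. The Apoe ratio of members over C1q-positive barcodes in the control library fell at the same step, from 1.32 to 0.57. The parts of that cell and of neutrophil RNA in the Apoe shift were not tested. T and NK cell markers summed to 45.4 CPM in CD147-LYTACs members and 77.6 CPM in control members, and hepatoma markers to 23.9 and 16.3 CPM. Fibroblast markers summed to 15.9 CPM in CD147-LYTACs members and 8.17 CPM in control members. Osteoclast markers outside the rule summed to 308 CPM in CD147-LYTACs members and 400 CPM in control members. Of 2 measured, 1 was lower in CD147-LYTACs members (Dcstamp) and none higher. The osteoclast genes Calcr and Oscar were at 0 in both, while Acp5 stood at 219 CPM in CD147-LYTACs members and 196 CPM in control members. Melanocyte markers, which matter because melanocytes make Gpnmb, summed to 0.796 CPM in CD147-LYTACs members and 0 in control members.

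The members of the CD147-LYTACs library were not uniform. Among them, 79 held at least 2 C1q UMIs, 13 held 1 and 95 held none. The 79 cells with C1q had 960 CPM of Spp1 and the 95 without it had 4547 CPM. Cxcl2 stood at 8942 CPM in the cells with C1q and 25028 CPM in those without. Cd74 stood at 4809 CPM in the cells with C1q and 1031 CPM in those without, Apoe at 3143 and 1065 CPM, and Fabp5 at 3960 and 1664 CPM. Ccl8, a monocyte attractant, stood at 1032 CPM in the cells with C1q and 53.5 CPM in those without, and Fn1 at 136 and 497 CPM. Cells with C1q thus had more Cd74, Apoe and Fabp5, and cells without it more Spp1, Cxcl2 and Fn1. The median depths were close, at 5883 UMIs in the cells with C1q and 5322 UMIs in those without. Among the 11 control members with C1q and the 12 without it, Spp1 stood at 124 and 181 CPM and Cxcl2 at 3333 and 10249 CPM. Since C1q transcripts defined these sets, they are a description of cells of 1 library.

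Ordered by the rate of membership-gene UMIs, the CD147-LYTACs members differed in other genes too. This order uses the genes that chose the members, so it is a description of cells of 1 library. Ctsl stood at 856 CPM in the 63 cells of lowest rate, 1957 CPM in the 62 in the middle and 2859 CPM in the 62 of highest rate. Plin2 stood at 780.1, 1167 and 1830 CPM in the same order, and Cd36 at 192, 498 and 801 CPM. Cd74 ran the other way, at 5000 CPM in the cells of lowest rate, 1981 CPM in the middle and 721 CPM in those of highest rate. C1qa stood at 1185, 740.3 and 194 CPM in that order and Il1b at 2675, 1960.2 and 942 CPM. Spp1 was flat over the first 2 sets, at 1680.1 and 1863 CPM, and 4562 CPM in the set of highest rate. The median UMIs per cell of the 3 sets were 6752, 4693 and 5596, and the part of depth in these levels was not tested.

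**Figure D4:**
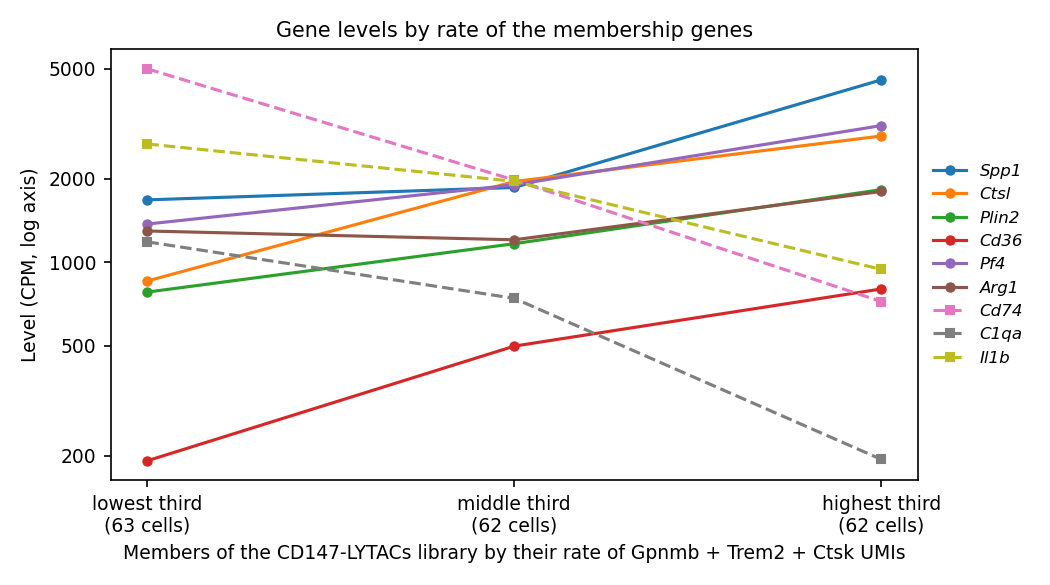
Levels of 9 genes in the 187 CD147-LYTACs members split into 3 sets by the rate of Gpnmb, Trem2 and Ctsk UMIs (63, 62 and 62 cells, low to high; CPM on a log axis; no error bars, 1 library). Solid lines are genes higher in the last set than in the first and dashed lines genes lower, with Cd74 at 5000 CPM in the first set and 721 CPM in the last.

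Members were then set beside C1q-positive barcodes of their own library, another set of gate barcodes with macrophage genes. In the CD147-LYTACs library 11.0% of 4765 measured genes were at least 1.5-fold higher in members and 12.0% lower, and in the control library 15.7% and 17.5% of 2247. In both libraries at once, 4.28% of 2242 genes were higher and 5.26% lower. Lipid and lysosomal genes were higher in larger shares than these backgrounds, in list counts that were not rerun under the alternatives. Members were deeper than C1q-positive barcodes, with median UMIs of 5714 against 4447 in the CD147-LYTACs library and 7092.5 against 3598 in the control library. The part of depth in these shares was not tested. Of 20 lipid genes in the CD147-LYTACs library 10 were higher and 3 lower, with a median log2 ratio of 0.61, and of 16 in the control library 8 were higher and 2 lower, with a median of 0.60. Of 28 lysosomal genes in the CD147-LYTACs library 12 were higher and none lower (median 0.52), and of 24 in the control library 10 were higher and 1 lower (median 0.42). The medians over all genes were -0.03 in the CD147-LYTACs library and -0.06 in the control library. Fabp5 was higher in members, with a log2 ratio of 1.36 in the CD147-LYTACs library and 2.03 in the control library, as was Ctsd, with 1.74 and 1.01, and Apoe, with 1.13 and 1.32. In the CD147-LYTACs library Fabp5 came to 0.48 after thinning, and in the control library Apoe came to 0.13. As a mean over cells, Ctsd came to 0.30 and Apoe to 0.15 in the control library, and Apoe to 0.55 in the CD147-LYTACs library. Ctsd stayed between 0.77 and 1.86 in the CD147-LYTACs library over all alternatives run. MHC class II genes were lower in the members of the CD147-LYTACs library (7 of 8, median -1.16) and near level in the control library (1 of 7, median -0.31). Spp1 was higher in members by 3.07 (2.84 to 3.30) on the log2 scale in the CD147-LYTACs library and by 0.36 (-0.32 to 1.04) in the control library.

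The genes highest in members in both libraries by the smaller ratio were Arhgap24, Plpp3, Lhfpl2, Slpi, Cxcl3, Apbb2, Atp6v0d2, Saa3, Clec4d, Nos2, Pdpn and Ctsl. Arhgap24 stood at 171 CPM in members and 21.5 CPM in C1q-positive barcodes of the CD147-LYTACs library. In the control library it stood at 216 CPM in members and 8.16 CPM in C1q-positive barcodes, a log2 ratio of 4.73 (3.10 to 7.05) that rested on 3 UMIs in the C1q-positive barcodes. Plpp3, a lipid phosphatase, had log2 ratios of 2.27 in the CD147-LYTACs library and 3.53 in the control library. Pdpn, the membrane glycoprotein podoplanin, had log2 ratios of 1.44 and 4.06 in the same order, and the chemokine gene Cxcl3 of 1.75 and 4.67. In the control library 54.1% of the members' Pdpn UMIs were in 1 cell. With both sets redrawn on thinned counts, the Pdpn ratio there turned to -0.64 and that of Slpi to -0.61. In the CD147-LYTACs library redrawing both sets turned Nos2 to -1.40 and Atp6v0d2 to -0.14. In the control library Apbb2 came to -0.11 without barcodes of other lineages. The control value of Saa3, an acute-phase apolipoprotein, came from 2 cells, 1 of which held 97.4% of it.

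The genes lowest in members were Htr7, Tmtc2, Ccr7, Trerf1, Ccnd2, Il1r2, Serpinb6b, Foxn3, Pde3b, Map3k14, Gbp8 and Il21r. Ccr7, the homing receptor of migrating dendritic cells, stood at 87.5 CPM in members and 340 CPM in C1q-positive barcodes of the CD147-LYTACs library, and at 12.2 CPM in members and 220.3 CPM in C1q-positive barcodes of the control library. Dendritic cell markers summed to 134 CPM in members and 414 CPM in C1q-positive barcodes of the CD147-LYTACs library, and to 282 and 332 CPM in the control library. Their part in these ratios was not tested. Tmtc2 had log2 ratios of -2.19 in the CD147-LYTACs library and -2.98 in the control library, and the cyclin gene Ccnd2 of -2.00 and -1.84. In the control library, redrawing both sets on thinned counts turned the ratio of Ccnd2 to 0.11, of Htr7 to 0.19 and of Il1r2 to 0.19. The same step brought Serpinb6b to -0.40 in place of -5.22 and Il21r to -0.51 in place of -1.64. As a mean over cells, Pde3b came to -0.42 in place of -2.37. The other named genes stayed past 1.5-fold in the control library over all alternatives run.

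**Figure D5:**
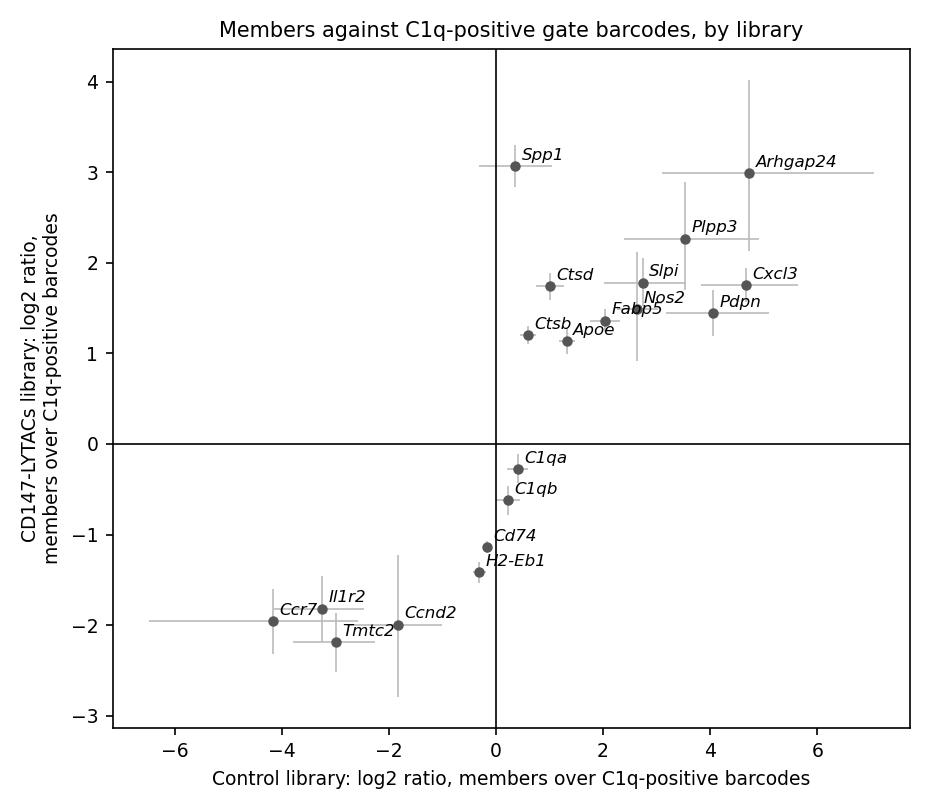
Log2 ratio of members over C1q-positive barcodes for 19 genes in the CD147-LYTACs library (vertical) and in the control library (horizontal), with 95% intervals for counting error. Most named genes lie on the same side in both libraries, while Spp1 is at 3.07 in the CD147-LYTACs library and 0.36 in the control library. C1qa and C1qb lie on opposite sides of 0, but C1q UMIs chose the C1q-positive barcodes, so their ratios are only a description.

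The gate left some barcodes with the membership genes outside. In all, 952 passing barcodes of the CD147-LYTACs library and 439 of the control library held at least 2 UMIs of the 3 genes. The keratin limit alone removed 103 barcodes from the CD147-LYTACs library and 76 from the control library, with median keratin sums of 323 and 276.5 UMIs. The Cd3 condition alone removed 130 barcodes from the CD147-LYTACs library and 21 from the control library, the Csf3r condition 50 and 12, and the myeloid limit 72 and 21. Libraries shared 24 barcode sequences, none of them among members. The positions of the 3 membership genes on GRCm38, from GENCODE M21, are chr6:49036546-49070929 for Gpnmb (ENSMUSG00000029816), chr17:48346401-48354147 for Trem2 (ENSMUSG00000023992) and chr3:95499256-95509362 for Ctsk (ENSMUSG00000028111), all protein-coding genes on the plus strand.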

How the data were processed

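Each library came as 1 deposited matrix of counts, unscaled UMIs by gene and by barcode. Per the submitters' processing notes the reads were processed with Cell Ranger 3.0.2 on mm10; per the file headers the matrices were written by version 7.1.0. The CD147-LYTACs library held 9219 barcodes and 149812326 UMIs, the control library 8150 barcodes and 143495332 UMIs. The members, gene lists and motifs were chosen with earlier results of these data known. UMIs were summed over members and scaled to CPM. Shares carry Clopper-Pearson intervals, levels Poisson intervals and ratios exact conditional binomial intervals, all 95% and for counting error only; a level of 0 was set to a floor of 3 counts over the group. Named genes passed 50 CPM, 1.5-fold and an interval apart from no difference, ranked by the nearer bound, the top 12 each way. Mitochondrial, ribosomal, unnamed-model, sex-linked and membership genes were left out, as were genes that, in the population where they were higher, lay under 10% of their level in another cell type. Against C1q-positive barcodes they were ranked by the smaller ratio. Between libraries, of genes that otherwise passed, 26 higher and 1 lower were left out because they differed the same way in hepatoma and T cells. No doublets were removed (a set of the highest doublet scores held 3 CD147-LYTACs members and 0 control members); scrublet in scanpy 1.11.5 marked 134 barcodes of the CD147-LYTACs library and 1 of the control library, so the caller did not work there. Scripts ran in Python 3.11.15. The ratios and their intervals were tested on simulated sums with no spread between cells. That test cannot speak to sums held by few cells. Alternatives are in the closing section.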

Additional observations from a re-analysis of the deposited data

Results flagged for a closer look

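Il6 was lower in members and higher in C1q-positive barcodes of the CD147-LYTACs library, relative to the control library. Its log2 ratio was -2.57 in members (31.0 CPM in CD147-LYTACs members, 184 CPM in control members) and 1.79 in C1q-positive barcodes (46.9 CPM in the CD147-LYTACs library, 13.6 CPM in the control library). The intervals of the Il6 ratios were -3.22 to -1.91 in members and 0.37 to 3.53 in C1q-positive barcodes. Ly6c2 had a log2 ratio of -0.74 in members (146 CPM in CD147-LYTACs members, 245 CPM in control members) and 2.38 in C1q-positive barcodes (113 CPM in the CD147-LYTACs library, 21.8 CPM in the control library). The intervals of the Ly6c2 ratios were -1.17 to -0.30 in members and 1.31 to 3.66 in C1q-positive barcodes. In members redrawn on thinned counts (11 in the control library), the ratio of Ly6c2 was 1.80, the direction of the C1q-positive barcodes. The ratio of Il6 in these redrawn members was -0.01. Uck2 had a log2 ratio of 2.86 in members (119 CPM in CD147-LYTACs members, 16.3 CPM in control members) and -1.26 in C1q-positive barcodes (62.5 CPM in the CD147-LYTACs library, 150 CPM in the control library). The intervals of the Uck2 ratios were 1.47 to 4.75 in members and -1.94 to -0.60 in C1q-positive barcodes. These opposite directions were not tested, since each group was 1 library.

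Barcodes that met every condition of membership except the absence of Cd3 transcripts, which the comparisons above do not use, made up 1.59% of passing barcodes in the CD147-LYTACs library (130 barcodes, interval 1.33% to 1.89%) and 0.296% in the control library (21 barcodes, 0.183% to 0.452%).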

How the results depend on the processing

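No paired analysis was possible because each group was 1 library. The ratio of gate shares was 2.75 and ran from 2.50 to 3.53 over most alternative rules; it was 4.59 with cells thinned to 2000 UMIs (137 CD147-LYTACs members and 11 control members left), 6.69 per Ptprc-positive barcode and 6.76 per passing barcode. The counts of genes past 1.5-fold moved most with a mean of at least 100 CPM. They were 230 higher and 310 lower between libraries (807 and 591 otherwise), so the share of higher calls was 42.6% in place of 57.7%. With median-of-ratios scaling it was 49.3%. Against C1q-positive barcodes in the CD147-LYTACs library they were 172 higher and 193 lower (525 and 570 otherwise). Redrawing both sets on thinned counts gave 710 lower genes in members than in C1q-positive barcodes of the control library (393 otherwise). Fewer genes or cells entered these counts by construction; the cause was not tested further. With no CPM filter the counts were unchanged. The floor on summed UMIs was kept there and by itself leaves out nearly every gene under the CPM limit. That alternative thus could hardly change the counts and says nothing of how they depend on the level filter.

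Of 3055 single values recomputed under 18 alternatives, 10 that were past 1.5-fold changed direction, and 58 that were under 1.5-fold changed sign. Of 141 ratios or list medians past 1.5-fold, 41 came under it or reversed in at least 1 alternative. Of these, 26 did so with sets redrawn on thinned counts. That alternative changed which cells were counted, and ratios still summed all their UMIs. In redrawn members, Ly6c2 came to 1.80 and Plac8 to 2.82 between libraries. Against C1q-positive barcodes, redrawing both sets gave -0.14 for Atp6v0d2 and -1.40 for Nos2 in the CD147-LYTACs library. In the control library it gave -0.61 for Slpi, -0.64 for Pdpn, 0.19 for Htr7, 0.11 for Ccnd2 and 0.19 for Il1r2. Apbb2 came to -0.11 in the control library without barcodes of other lineages. The cause was not tested. Removing dendritic-marker barcodes, removing S100a8 or S100a9 barcodes, and leaving out the deepest member were chosen after seeing the data. The 24 control members set the precision of every ratio between libraries.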
